A study of Homo sapiens with 22 samples.

Results

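AMOT, KCTD12 and the paired microRNA genes MIR221 and MIR222 were examined in peak lists from chromatin immunoprecipitation sequencing (ChIP-seq) of cells labelled 22Rv1, a human line established from prostate cancer. These 4 genes lie at 3 loci. They were chosen from measured values, because RNA polymerase II phosphorylated on serine 5 (Pol2S5p) covered their loci far more widely in cells overexpressing the linker histone H1-10 (H1-10 OE) than in control cells (Ctrl). That contrast is therefore given below as a description. Every peak of 8 deposited lists was taken that overlapped one of 3 spans of the hg19 genome. These were AMOT at chrX:112018105-112084043 and KCTD12 at chr13:77454312-77460540, each widened by 5 kb on both sides, and the MIR221-MIR222 span with its upstream transcript at chrX:45595000-45640000. The rule gave 131 of the 291055 peaks of the series: 98 at AMOT, 10 at KCTD12 and 23 at MIR221-MIR222.

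The series holds 22 samples, of which 8 have a peak list used here, 1 library per group. H3K27me3, Pol2S5p and E2F3 were each mapped in Ctrl and in H1-10 OE cells. Pol2S5p was also mapped in cells given siRNA, either a control (siCtrl) or one targeting E2F3 (siE2F3); the peak names of both siRNA lists carry an H1-10 overexpression tag that the sample labels do not state. The other 14 samples, 10 inputs and 4 libraries of Flag-tagged H1-10, were not analysed here. Without replicates, differences between groups could not be set against replicate error, and p-values were not computed.

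Serine 5 of the polymerase repeats is phosphorylated as transcription starts, so Pol2S5p usually peaks at gene starts and can spread over the body of a gene that is being transcribed. H3K27me3 is the mark of Polycomb-silenced chromatin, and E2F3 is a transcription factor of the cell cycle. AMOT encodes angiomotin, a scaffold of cell junctions and actin that binds YAP, the effector of the Hippo pathway. KCTD12 encodes an auxiliary subunit of GABA-B receptors. MIR221 and MIR222 are made from a shared transcript, MIR222HG, and their products are known for repressing the cell cycle inhibitor CDKN1B.

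The mature microRNAs are shown because MIR221 and MIR222 are read as 1 unit at this locus and yield products of 1 seed family. The capitals mark the seed, bases 2 to 8, in sequences from RefSeq (GRCh38.p14), 5′ to 3′.
hsa-miR-221-3p: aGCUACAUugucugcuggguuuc
hsa-miR-222-3p: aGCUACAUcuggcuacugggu
hsa-miR-222-5p: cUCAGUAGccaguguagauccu
The 3p products of both genes share their first 8 bases and with them the seed GCUACAU, which no other of the 2545 mature entries in the table carries. The 5p product of MIR222 has another seed. In RefSeq the hairpins lie on the minus strand of GRCh38 at chrX:45747015-45747124 (MIR222) and chrX:45746157-45746266 (MIR221), with 748 bp between them. They lie 23.1 and 24.0 kb downstream of the start of MIR222HG, which is 25.1 kb long.

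The promoters of AMOT and KCTD12 are shown because Pol2S5p peaks of H1-10 OE lay over both gene starts. That of MIR222HG is shown as the promoter of the microRNAs' host transcript, whose start was not placed on hg19 and so is not set against the peaks. Each is 250 bases before to 50 after the RefSeq start on the minus strand of GRCh38.p14, 5′ to 3′, at chrX:112840782-112841081 for AMOT, chr13:76886356-76886655 for KCTD12 and chrX:45770218-45770517 for MIR222HG. Capitals mark CpG dinucleotides.
AMOT: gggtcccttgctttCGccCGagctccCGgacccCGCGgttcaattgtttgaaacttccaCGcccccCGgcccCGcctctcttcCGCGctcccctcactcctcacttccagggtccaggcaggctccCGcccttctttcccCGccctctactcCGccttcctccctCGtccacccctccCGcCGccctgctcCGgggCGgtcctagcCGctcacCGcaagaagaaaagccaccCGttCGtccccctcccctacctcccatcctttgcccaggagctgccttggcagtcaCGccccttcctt
KCTD12: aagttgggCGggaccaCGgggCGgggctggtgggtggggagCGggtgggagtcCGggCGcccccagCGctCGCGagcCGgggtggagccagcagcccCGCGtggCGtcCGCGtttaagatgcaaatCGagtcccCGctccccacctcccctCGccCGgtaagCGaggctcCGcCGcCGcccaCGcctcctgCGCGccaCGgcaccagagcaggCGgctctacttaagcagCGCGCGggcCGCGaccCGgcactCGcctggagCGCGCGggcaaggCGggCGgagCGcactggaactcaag
MIR222HG: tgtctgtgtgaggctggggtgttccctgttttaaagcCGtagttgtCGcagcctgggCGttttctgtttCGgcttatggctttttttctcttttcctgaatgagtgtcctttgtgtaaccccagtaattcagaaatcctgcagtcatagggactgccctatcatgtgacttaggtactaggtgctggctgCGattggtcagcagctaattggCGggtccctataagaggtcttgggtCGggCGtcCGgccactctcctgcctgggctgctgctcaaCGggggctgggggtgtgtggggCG
The promoters differed in CpG content. KCTD12 held 41 CpG in 300 bases, more than 93.3% of the 35116 RefSeq promoter windows of that length. AMOT held 23, more than 64.2% of windows, and MIR222HG held 11, more than 45.3%. Neither TTTCGCGC nor TTTGGCGC, the E2F letters searched on both strands, was found in the 3 windows, and they occurred in 0.515% and 0.652% of all windows. TATAAA was also not found, and 11.5% of all windows held it.

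The libraries from Ctrl and from H1-10 OE cells differed at genes that mark prostate cells. Across 5 such genes, the secreted kallikreins KLK3 and KLK2, the membrane protease TMPRSS2 and the lineage factors HOXB13 and FOXA1, the share of the gene under Pol2S5p peaks ranged from 1.29 to 100% in Ctrl, with a median of 51.9%. It ranged from 0 to 12.4% in H1-10 OE, with a median of 0, and was lower there than in Ctrl at all 5 genes. HOXB13 was covered over 100% in Ctrl, 12.4% in H1-10 OE, 16.4% in siCtrl and 25.3% in siE2F3. KLK3, KLK2 and TMPRSS2 had no Pol2S5p peak in any of the 3 lists other than Ctrl. ACTB, a housekeeping gene, and H1-10 itself were covered over 100% in all 4 lists. FOXA1, at 100% in Ctrl, held the most cover of the 5 genes in the siRNA lists, 44.5% in siCtrl and 42.2% in siE2F3. Each of the 5 genes was covered less in each of the other 3 lists than in Ctrl. The part of this difference in the values at AMOT, KCTD12 and MIR221-MIR222 was not tested. The labels give 22Rv1 for all of these libraries, but whether the Ctrl and H1-10 OE libraries came from the same cells was not tested, and these marker values leave it in doubt. With 1 library per group, added H1-10 and any other difference between the cells, a different cell line included, cannot be told apart, and this holds for every difference between Ctrl and the other lists given below. The lists also differed in length, from 35493 Pol2S5p peaks in Ctrl to 83650 in siCtrl, and the read depth is unknown here.

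**Figure D1:**
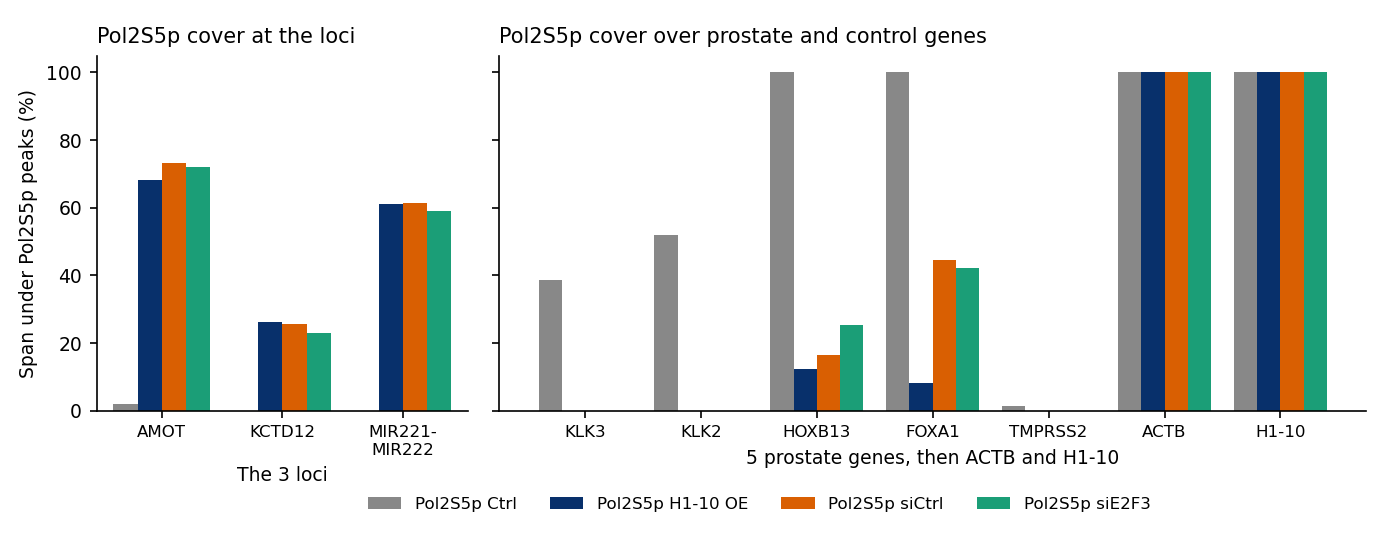
Share of each span (left, %) or gene (right, %) lying under Pol2S5p peaks; each bar is 1 library (grey Ctrl, blue H1-10 OE, orange siCtrl, green siE2F3), with no error bars since there are no replicates. The 3 loci are covered over 22.9% or more in every list except Ctrl, whereas HOXB13 goes from 100% in Ctrl to 25.3% or less in the rest and ACTB and H1-10 stay at 100%.

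The Ctrl and H1-10 OE libraries set the polymerase of control cells beside that of cells labelled as overexpressing H1-10. At all 3 loci the Pol2S5p list of Ctrl was empty or nearly so, and those of H1-10 OE, siCtrl and siE2F3 held peaks in each span. The AMOT span was covered over 2.05% in Ctrl, 68.2% in H1-10 OE, 73.2% in siCtrl and 72.1% in siE2F3. The KCTD12 span was covered over 0, 26.3, 25.6 and 22.9% in the same order. The MIR221-MIR222 span was covered over 0, 61.1, 61.5 and 59.0%. At each locus the Ctrl value was the lowest of the 4, and the other 3 lay far closer to each other than to Ctrl.

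To set these values against the genome, windows of the length of each span were tiled over the chromosomes and those with Pol2S5p in at least 1 of the 2 lists compared were kept. A cover at least 10 percentage points higher in H1-10 OE than in Ctrl was met in 0.391% of the windows of AMOT length, 5.09% of those of KCTD12 length and 0.981% of those of MIR221-MIR222 length. A gain as large as that of AMOT, 66.1 points, was met in 1 of 14315 windows, that of MIR221-MIR222, 61.1 points, in 2 of 18041, and that of KCTD12, 26.3 points, in 122 of 26832; the tiled windows include the loci themselves. Since the loci were chosen for this gain, nothing further is read from these shares. Chromosome X, which holds AMOT and MIR221-MIR222, had 2.48% of the Pol2S5p peaks of Ctrl and 3.24% of those of H1-10 OE. In siCtrl and siE2F3 it had 3.06 and 2.98%, and windows of chromosome X alone were not compared. Counted by peaks, 36 of 37 H1-10 OE peaks at AMOT, all 3 at KCTD12 and all 6 at MIR221-MIR222 overlapped no Ctrl peak, against 42.8% of all H1-10 OE peaks. Of those peaks, 30 at AMOT, 2 at KCTD12 and 6 at MIR221-MIR222 overlapped peaks of both siCtrl and siE2F3; over all H1-10 OE peaks without a Ctrl peak this share was 67.4%.

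AMOT showed a single Ctrl peak at its start and, in the other lists, a chain of peaks from before the start to beyond the 3′ end. The Ctrl peak at chrX:112083655-112085208 spanned 1.55 kb with its summit 118 bp upstream of the AMOT start. Its fold enrichment over the background of the authors' caller was 8.10, and it ranked among the strongest 38.3% of the Ctrl list by -log10 q. The H1-10 OE list held 37 peaks over 71.2 kb, from chrX:112014239 to 112085429. They were mostly short and moderate, with a median width of 1026 bp and folds from 3.20 to 15.2 around a median of 5.21. Of the 37, 14 lay above the median fold of their list, 5.51. The siCtrl list held 34 peaks over 72.2 kb with folds from 2.59 to 24.4, of which 22 lay above the median of that list, 4.84. The siE2F3 list held 25 peaks over 71.6 kb with folds from 2.41 to 21.8, of which 14 lay above its median, 4.47.

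**Figure D2:**
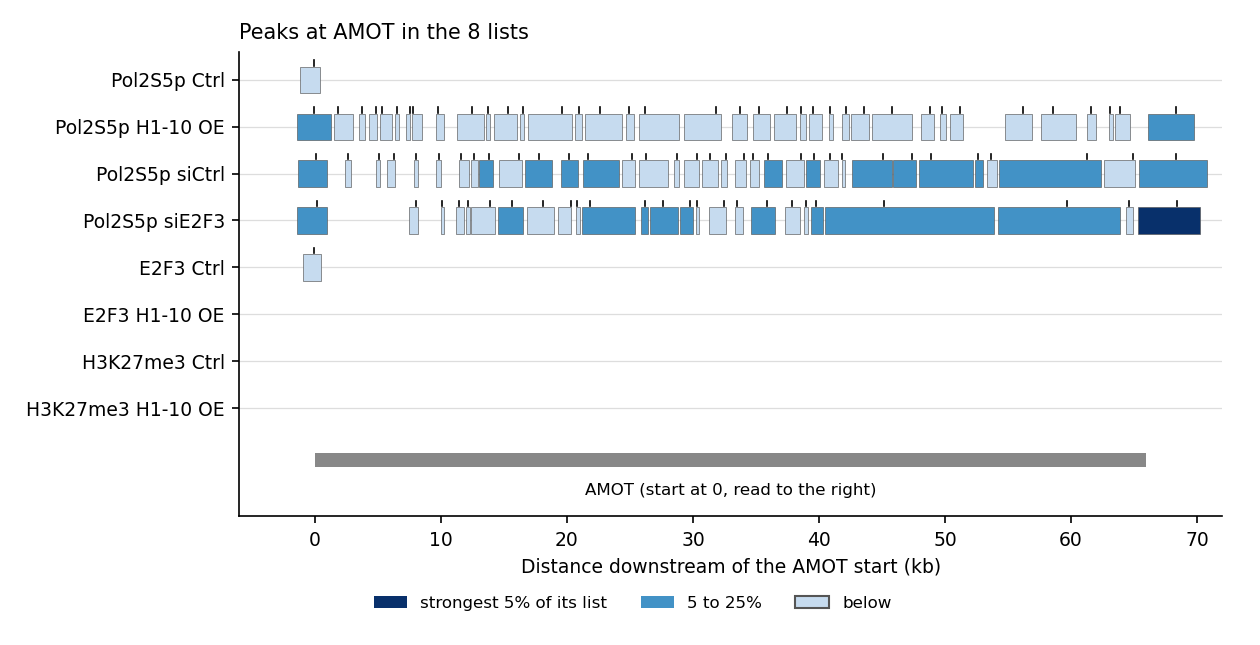
Peaks at AMOT in the 8 lists by distance downstream of the gene start (kb); each box is a peak, the tick above it its summit, and the shade its rank by -log10 q within its own list. Ctrl holds 1 Pol2S5p peak at the start, and the other 3 Pol2S5p lists hold 37, 34 and 25 peaks that reach past the end of the gene.

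In each of the 3 lists other than Ctrl, the strongest AMOT peak had its summit past the 3′ end of the gene. The H1-10 OE peak at chrX:112014239-112017944 had a fold of 15.2 and the highest -log10 q of its list at AMOT, 36.2. The corresponding siCtrl peak, chrX:112013228-112018684, had a fold of 24.4 and ranked in the strongest 5.09% of its list. That of siE2F3, chrX:112013798-112018782, had a fold of 21.8 and ranked in the strongest 4.77%. The summits of these 3 peaks fell within 28 bp of each other, 2410, 2412 and 2438 bp beyond the 3′ end of the span given for AMOT. No Ctrl peak was found there.

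At the AMOT start, the H1-10 OE peak at chrX:112082798-112085429 was 2.63 kb wide with a fold of 12.3, and overlapped the Ctrl peak. Its summit lay 86 bp upstream of the start, those of siCtrl and siE2F3 117 and 188 bp downstream. The start was thus the 1 place at AMOT where all 4 Pol2S5p lists had a peak. Fold values come from separate lists and are not compared between them.

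Within the gene body the lists differed in where the cover lay. In the first 10 kb from the start, 66.8% was covered in H1-10 OE, 31.3% in siCtrl and 16.7% in siE2F3, and 3.89% in Ctrl. From 20 to 30 kb the shares were close, at 85.5, 82.7 and 86.4% in the lists other than Ctrl. From 50 to 60 kb they were 57.8% in H1-10 OE, 92.5% in siCtrl and 97.5% in siE2F3. H1-10 OE was thus the highest of the 3 near the start and the lowest towards the 3′ end, where siCtrl held a peak of 8.06 kb and siE2F3 one of 13.4 kb, among the longest 1.53% and 0.327% of their lists. Ctrl was at 0 in every bin beyond the first. With the spread between libraries of 1 condition unknown, these differences among the 3 lists have no error to be set against.

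**Figure D3:**
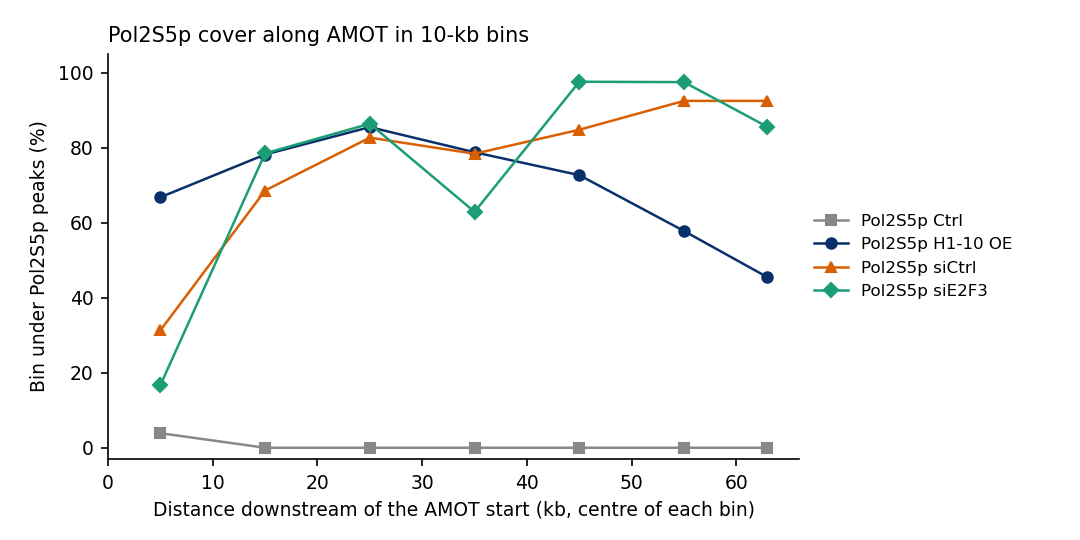
Share of each bin of AMOT lying under Pol2S5p peaks (%) by distance downstream of the start (kb); bins are 10 kb and the last is shorter, points are single libraries and lines only join them. Ctrl is at 3.89% in the first bin and 0 after it, while siCtrl and siE2F3 are lowest in the first bin, at 31.3 and 16.7%.

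KCTD12, a short gene of 6.23 kb, held 1 strong peak over its start rather than a chain. In H1-10 OE it lay at chr13:77458402-77461299, had a fold of 34.2 and a -log10 q of 120, and ranked 382 of 40626, in the strongest 0.940% of the list. The siCtrl peak, chr13:77458150-77461691, was 3.54 kb wide with a fold of 27.1 and ranked in the strongest 0.663%. The siE2F3 peak, chr13:77458124-77461130, was 3.01 kb wide with a fold of 14.8 and ranked in the strongest 1.44%. All 3 peaks therefore stood near the top of their own lists, and Ctrl had no peak in the span.

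The summits of the KCTD12 peaks lay close together, at 44, 28 and 49 bp downstream of the gene start in H1-10 OE, siCtrl and siE2F3, a range of 21 bp. Each list had 2 further, weaker peaks in the span. They included an H1-10 OE peak of 808 bp with its summit 533 bp beyond the 3′ end and a fold of 5.40, which overlapped no siCtrl or siE2F3 peak. The nearest Ctrl peak of Pol2S5p lay 100 kb beyond the upstream edge of the span, at chr13:77565796-77566665, with a fold of 17.4. All of the other Pol2S5p lists had a peak there too. How well the Ctrl library could register a peak at KCTD12 itself was not tested.

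**Figure D4:**
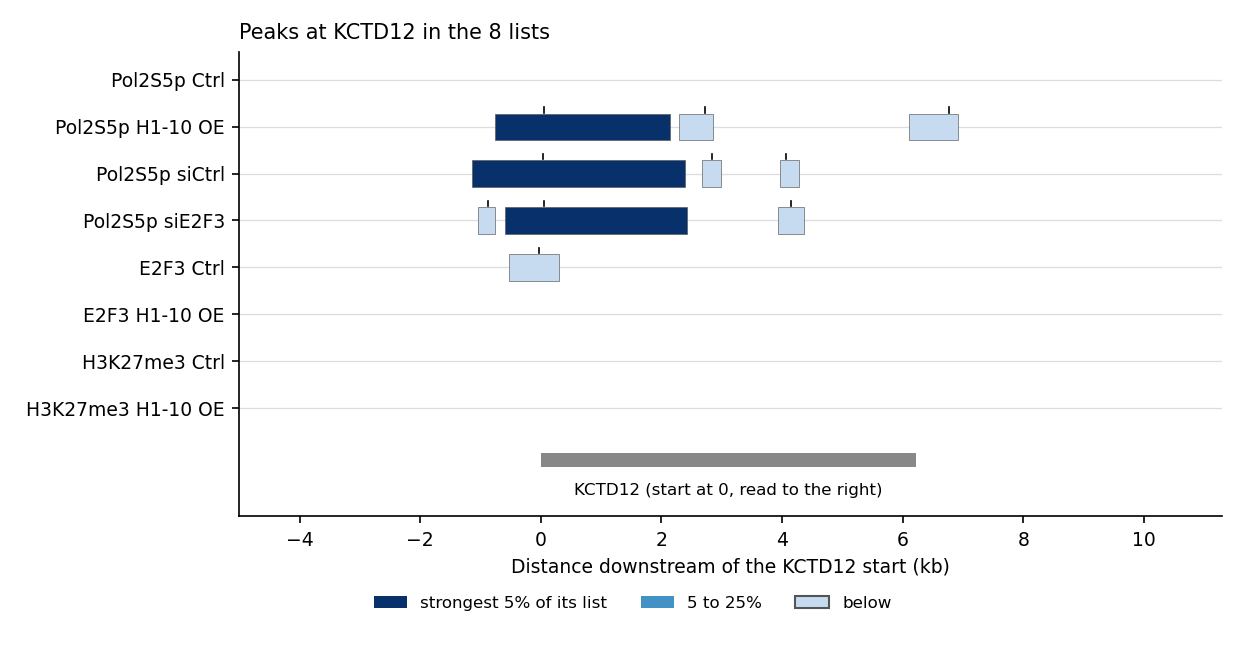
Peaks at KCTD12 in the 8 lists by distance downstream of the gene start (kb); boxes are peaks, ticks their summits, and the shade is the rank by -log10 q within each list. A peak among the strongest 1.44% of its list or better covers the start in H1-10 OE, siCtrl and siE2F3, the E2F3 peak of Ctrl lies at the same place, and Ctrl has no Pol2S5p peak.

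The MIR221-MIR222 span held a block of Pol2S5p of 29.4 kb in H1-10 OE, 29.6 kb in siCtrl and 29.1 kb in siE2F3, with none in Ctrl. The block was nearly continuous: 6 peaks covered 27.5 kb in H1-10 OE, 9 covered 27.7 kb in siCtrl and 8 covered 26.6 kb in siE2F3. All 6 H1-10 OE peaks lay above the median fold of their list, with folds from 9.52 to 31.8. The bases covered in all 3 lists made up 80.8% of those covered in any of them, against 56.4% at AMOT and 52.8% at KCTD12. The nearest Ctrl peaks of Pol2S5p lay 620 kb and 666 kb away on either side.

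The upstream end of the block was nearly the same in the 3 lists, with summits within 40 bp. The summits lay at position 45629679 in H1-10 OE and 29 and 40 bp downstream of it in siCtrl and siE2F3. This upstream peak had a fold of 22.7 in H1-10 OE, among the strongest 7.60% of the list, 16.7 in siCtrl, among the strongest 4.40%, and 36.2 in siE2F3, among the strongest 1.14%. The strongest H1-10 OE peak lay at the other end, at chrX:45601392-45608296, with a fold of 31.8 and a width of 6.91 kb, in the longest 0.458% of the list. It stretched from 21.4 to 28.3 kb downstream of the upstream summit. For comparison, RefSeq places the MIR222 and MIR221 hairpins 23.1 and 24.0 kb downstream of the MIR222HG start on GRCh38; positions were not converted between builds, so the hairpins are not placed under a peak here.

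The block differed in shape between the lists. The downstream end was 1 long peak in H1-10 OE and 4 separate peaks in both siRNA lists, whose most downstream summits lay 26.9 kb (siCtrl) and 25.9 kb (siE2F3) from the upstream summit. The longest siCtrl peak, 13.6 kb at chrX:45612110-45625715, lay 3.96 to 17.6 kb downstream of the upstream summit of H1-10 OE. The longest siE2F3 peak, 12.0 kb at chrX:45615947-45627950, lay 1.73 to 13.7 kb downstream of it. These ranked in the longest 0.485% and 0.449% of their lists.

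**Figure D5:**
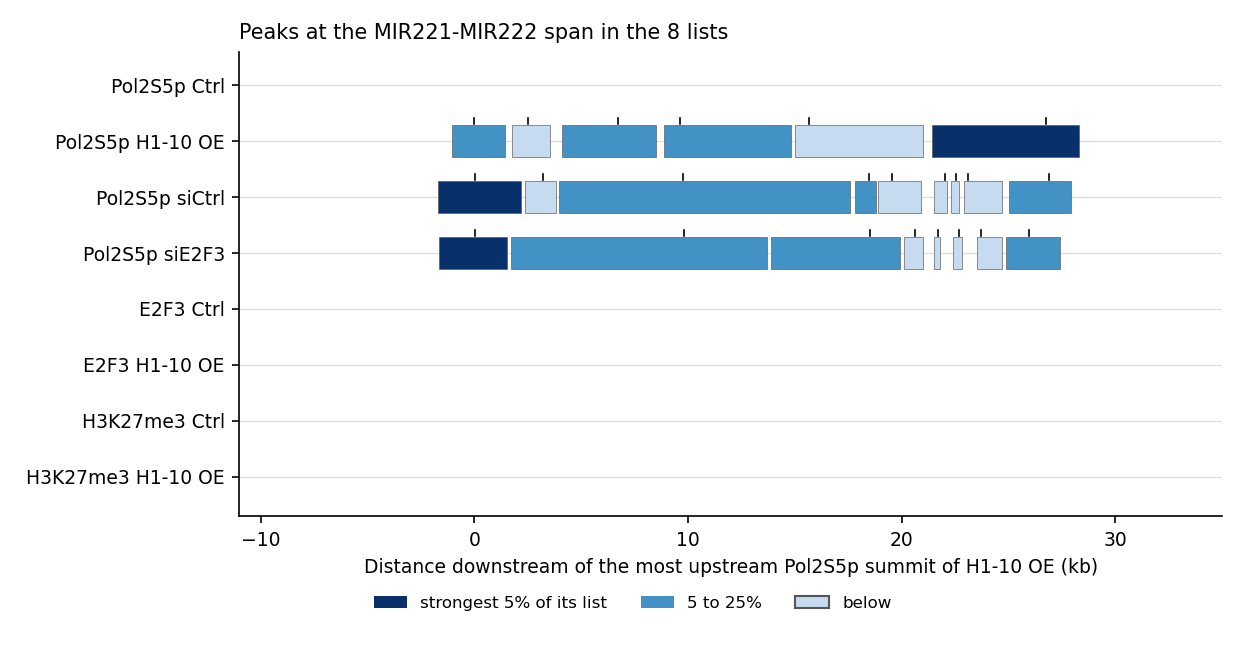
Peaks at the MIR221-MIR222 span in the 8 lists by distance downstream of the most upstream Pol2S5p summit of H1-10 OE (kb); boxes are peaks, ticks their summits, and the shade is the rank by -log10 q within each list. Blocks of 29.1 to 29.6 kb are seen in H1-10 OE, siCtrl and siE2F3, and the 5 other lists have no peak in the span.

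The pair of siRNA lists sets Pol2S5p of cells given siE2F3 beside that of cells given siCtrl, and their difference was not used to choose the loci. E2F3 was not mapped in either, and how far the siRNA lowered it is unknown here. The E2F3 list of H1-10 OE had no peak at any of the 3 loci. Whether Pol2S5p at these loci depends on E2F3 was therefore not tested. Cover differed little. From siCtrl to siE2F3 it went from 73.2 to 72.1% at AMOT, a difference of -1.08 percentage points, from 25.6 to 22.9% at KCTD12 (-2.66) and from 61.5 to 59.0% at MIR221-MIR222 (-2.44). The median over all windows of the same lengths was -0.346, -1.12 and -0.538 points, so the siE2F3 list covered somewhat less across the genome as well. A difference of at least 10 points in this direction was met in 1.42% of windows of AMOT length, 8.67% of KCTD12 length and 3.01% of MIR221-MIR222 length, and at none of the 3 loci. With 1 library each, values this close cannot be ranked, and the sign at AMOT turned to 1.87 when only peaks with a -log10 q of at least 5 were kept.

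Most siCtrl bases were also covered in siE2F3: 87.4% at AMOT, 86.1% at KCTD12 and 92.7% at MIR221-MIR222. The same share over the whole genome was not computed. By peaks, 3 of 34 siCtrl peaks at AMOT, 1 of 3 at KCTD12 and 0 of 9 at MIR221-MIR222 had no siE2F3 peak overlapping, against 30.6% of all siCtrl peaks. Peaks of siE2F3 lay over 72.1% of the AMOT span and 59.0% of the MIR221-MIR222 span. An overlap of 1 bp was therefore likely for any siCtrl peak there, and nothing is read from these counts against 30.6%. At AMOT the siE2F3 list had no peak between 0.953 and 7.49 kb downstream of the start, a stretch where both other lists had peaks. Those of siCtrl had folds of at most 4.19, below the median of the siCtrl list.

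E2F3 was found at the starts of both protein-coding genes in Ctrl and at none of the 3 loci in H1-10 OE. At AMOT the E2F3 peak of Ctrl lay at chrX:112083543-112085006 with a fold of 15.6, in the strongest 33.9% of its list, and its summit was 98 bp upstream of the start. It overlapped the Pol2S5p peak of Ctrl, whose summit lay 118 bp upstream. At KCTD12 the E2F3 peak of Ctrl lay at chr13:77460247-77461067 with a fold of 7.76, in the strongest 54.4% of its list, and its summit was 38 bp upstream of the start. The MIR221-MIR222 span had no E2F3 peak in either list; the nearest in Ctrl lay 70.9 kb upstream of the span.

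The 2 E2F3 peaks must be read against their lists. The E2F3 list of H1-10 OE was far shorter than that of Ctrl, with 4296 peaks against 22988. It was also uneven, with 12.8% of its peaks on chromosome 13 against 2.12% in Ctrl. Most Ctrl peaks could therefore have no match in it. Of all E2F3 peaks of Ctrl, 97.4% had no H1-10 OE peak overlapping, and ACTB and H1-10, which had E2F3 peaks in Ctrl, had none in H1-10 OE, so the absence at AMOT and KCTD12 is what most Ctrl peaks showed. The KCTD12 peak was 1 of the 32.0% of E2F3 peaks of Ctrl without a Pol2S5p peak of Ctrl. Of those, 19.6% overlapped peaks in all 3 of the other Pol2S5p lists, as KCTD12 did.

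No H3K27me3 peak was found in any of the 3 spans, in Ctrl or in H1-10 OE, so the loci without Pol2S5p in Ctrl did not carry a called H3K27me3 peak there. Chromosome X had 0 of the 2540 Ctrl peaks of this mark, so the absence in Ctrl says little about AMOT and MIR221-MIR222. In H1-10 OE it had 1319 of 18395 peaks, or 7.17%, so the 2 lists differed over the whole chromosome. In H1-10 OE, AMOT lay in a gap between H3K27me3 peaks, and how common such gaps are on chromosome X was not tested. Within 500 kb of the AMOT span the H1-10 OE list held 31 peaks, 22 on the 3′ side and 9 on the upstream side, with folds from 2.84 to 5.96. The nearest ended 26.3 kb beyond the 3′ end of AMOT and began 64.8 kb upstream of its start, which leaves a gap of 157 kb that holds the Pol2S5p chain. Windows of that length, 1.08 Mb, held a median of 5.00 H3K27me3 peaks on chromosome X, and 8 of 144 held at least 31. The other loci lay far from the mark in H1-10 OE, with the nearest peak 1.64 Mb from the KCTD12 span and 4.57 Mb from that of MIR221-MIR222. Chromosome 13 held only 43 peaks of that list, or 0.234%. In Ctrl the nearest peaks lay 40.2 and 24.6 Mb from the KCTD12 span on either side. The absence of the mark at KCTD12 therefore says little in either list.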

How the data were processed

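The tools FastQC, fastp and Bowtie and the build hg19 are named in the submitters' processing notes. Peak caller and threshold: not given in the sources used here. Each deposited list holds the peaks of 1 library, called by the authors, with a score, a fold enrichment (ratio to the background of the caller), -log10 p and -log10 q values, and summit offsets; the lowest -log10 q was 1.30. The E2F3 and siRNA lists share a folder name in their peak names that the remaining lists lack, so processing may differ between these sets. Values from lists are ranked only within a list.

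Computed here were peaks and covered bases per span, overlaps of at least 1 bp, summit distances, tiled windows (chromosome Y and the mitochondrial genome left out) and promoter letters, with Python 3.11.15, numpy 2.4.6, pandas 2.3.3 and matplotlib 3.10.9. Interval code was tested on simulated lists. Depth is unknown, so no counting interval is given. The text names per locus and list the peak with the highest -log10 q, the longest and the one at the upstream end, and single E2F3 peaks; the most downstream peaks and the neighbouring peaks were named after their values were seen. Members, lists and marker genes were chosen with earlier results of these data known. No hg19 annotation was used: spans of the 7 marker and control genes were written from general knowledge of hg19 and have 97.7 to 100% of the RefSeq gene length, and related gene lists were not analysed here. A further 2 marker genes are not reported here, for a reason unrelated to their values. Distances count from the upstream edge of the hg19 span given for AMOT or KCTD12, called the gene start, and at MIR221-MIR222 from the most upstream Pol2S5p summit of H1-10 OE. Only the direction comes from RefSeq, where AMOT, KCTD12 and MIR222HG lie on the minus strand.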

Additional observations from a re-analysis of the deposited data

How the results depend on the processing

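Values as reported are the gain in Pol2S5p cover from Ctrl to H1-10 OE, in percentage points, of 66.1 at AMOT, 26.3 at KCTD12 and 61.1 at MIR221-MIR222. The loci were chosen for this gain, and Ctrl cover was 0 at KCTD12 and MIR221-MIR222, where a reversal was not possible. That the gain kept its direction in every alternative is therefore no further support for it. In the same order it was 70.2, 45.1 and 78.5 with spans narrowed by 5 kb on each side, 58.4, 16.2 and 50.0 with spans widened by a further 5 kb, and 82.6, 27.2 and 65.2 with peaks within 1 kb merged. A -log10 q of at least 5 gave 53.2 at AMOT and 22.8 at KCTD12, and equal numbers of the strongest peaks gave 64.7 at AMOT. With the siE2F3 list in place of H1-10 OE, chosen after seeing the data, the gains were 70.0, 22.9 and 59.0, and with siCtrl it was 71.1 at AMOT. The count of 36 H1-10 OE peaks without a Ctrl peak at AMOT was 23 with a -log10 q of at least 5 and 4 after merging, and that of 6 at MIR221-MIR222 was 1 after merging, by construction. The change from siCtrl to siE2F3 at AMOT, -1.08 points, reversed to 1.87 with a -log10 q of at least 5; the cause was not tested. It was -3.09 with merging, -0.440 with the narrower and -1.62 with the wider span. At KCTD12, from -2.66, it was -0.647 with the stricter -log10 q, -9.51 with merging and -1.65 with the wider span. At MIR221-MIR222, from -2.44, it was -1.08 with merging, -3.14 with the narrower and -1.54 with the wider span. The 12 counts of E2F3 and H3K27me3 peaks did not change in any alternative. Most of them were 0, which only the wider span could have raised. Depth limits all lists: a place without a peak may still hold signal. No paired analysis was possible because each group has 1 library.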

Other observations

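Upstream of the MIR221-MIR222 block lay a separate peak in 4 lists. Pol2S5p peaks of H1-10 OE (chrX:45710183-45711474, fold 10.6), siCtrl (chrX:45709847-45711444, fold 20.8) and siE2F3 (chrX:45709751-45711466, fold 8.45) had their summits 81.4 to 81.5 kb upstream of the upstream summit of the block. The E2F3 list of Ctrl had a peak at the same place, chrX:45710901-45711229 with a fold of 8.70, and its summit lay 81.4 kb upstream. The Pol2S5p list of Ctrl had none, and neither had the E2F3 list of H1-10 OE. In RefSeq the next gene upstream of MIR222HG is the long non-coding RNA LINC02595, 77.8 to 81.2 kb from the MIR222HG start on GRCh38; positions were not converted between builds. As at KCTD12, E2F3 was thus found without Pol2S5p in Ctrl, and Pol2S5p without E2F3 in H1-10 OE, where 97.4% of all E2F3 peaks of Ctrl had no overlapping peak. E2F3 was not mapped in siCtrl or siE2F3 cells. This place was noticed after the values were seen and was not tested.

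On the 3′ side of AMOT, the only other Ctrl peak of Pol2S5p within 500 kb of the span, chrX:111923162-111923640 with a fold of 5.80, overlapped an H3K27me3 peak of H1-10 OE at chrX:111923280-111923671, with a fold of 5.30. None of the other Pol2S5p lists had a peak there. This overlap was noticed after the values were seen, and the share of all Ctrl Pol2S5p peaks with such an overlap was not computed. The H1-10 OE list held 31 H3K27me3 peaks within 500 kb of the AMOT span, against a median of 5.00 in windows of 1.08 Mb on chromosome X. Nothing further is read from this single place.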
